A study of Mus musculus with 3 samples.

Results

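The 10 genes described here carry glucose into the cell and through glycolysis: Slc2a1, Hk1, Hk2, Pfkl, Pfkp, Pfkfb3, Aldoa, Gapdh, Pkm and Ldha. Their peaks were taken as the rows of the deposited Foxp4 and H3K27ac peak lists whose assigned gene was 1 of these 10 genes, of 21031 protein-coding genes in all. This gave 10 of 16937 Foxp4 peaks and 27 of 17564 H3K27ac peaks on chromosomes 1 to 19, X and Y. The lists came from chromatin immunoprecipitation with sequencing (ChIP-seq) of C57BL/6 mouse beige adipocytes, thermogenic fat cells obtained in culture from the stromal-vascular cells of inguinal white fat. All libraries share this cell type and culture. Cells grown in 20% serum were induced for 48 h in 10% serum. The induction medium held 5 µM troglitazone, 50 nM T3, 1 µM dexamethasone, 0.5 mM isobutylmethylxanthine and insulin at 5 µg/ml. Troglitazone, T3 and insulin were kept for 6 further days. The Foxp4 group is 1 library, the H3K27ac group is 1 library, and the 1 input library was not analysed here. No untreated or undifferentiated cells were among the samples, so these peaks describe 1 culture state. With no replicate there is no test. Each interval given is a 95% Clopper-Pearson interval and covers counting error alone. Intervals over peaks treat the peaks of 1 gene as independent and can be too narrow.

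Foxp4 is a forkhead transcription factor, and H3K27ac is the acetylation of histone H3 at lysine 27, a mark of active promoters and enhancers. Glucose enters the cell through transporters, is trapped by hexokinases, is committed to glycolysis at the phosphofructokinase step and ends as pyruvate or lactate. In thermogenic fat cells glucose is both a fuel and a source of carbon for lipid synthesis. Sequencing depth is unknown from the lists, and the scores are the authors' own. A score was therefore compared only with other peaks of its own list. The libraries' label was checked on defining markers. Of 9 adipocyte genes, 8 had an H3K27ac peak assigned and Adipoq had none. Of 6 beige or brown fat genes, 2 had a peak (scores 61 and 62), and Ucp1, Cidea, Prdm16 and Dio2 had none. That count is not above the 37.5% of all protein-coding genes that had an H3K27ac peak, so these markers do not bear out the beige label. Of 4 progenitor genes all 4 had a peak, of 4 macrophage genes 2, of 4 endothelial genes 3 and of 4 skeletal muscle genes 0. These counts take peaks at any distance. A peak centred within 1000 bp of a start was found at 6 adipocyte, 1 beige or brown and 2 progenitor genes. The same held for 1 macrophage, 0 endothelial and 0 skeletal muscle genes. Over all protein-coding genes 26.0% had such a peak, so 1 of 6 beige or brown and 1 of 4 macrophage genes are not above that share. The highest score per gene ranged over 43 to 108 in the adipocyte, 51 to 81 in the progenitor, 33 to 48 in the macrophage and 29 to 52 in the endothelial list. The part of other cell types in the glycolysis peaks was not tested.

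Most starts of these genes were rich in CpG dinucleotides, as were the starts of all genes that lay near an H3K27ac peak. RefSeq promoter windows of GRCm38.p6, the assembly of mm10, were available for all 10 genes, with 16 windows of 300 bases in all. The median GC content was 64.0% (range 51.3 to 69.7%) over these 16 windows and 52.7% over 32851 windows of all genes, but 62.7% over the 7489 windows within 1000 bp of an H3K27ac peak. The median number of CpG dinucleotides was 20.5 over the members' windows and 7 over all windows, and 23.0 over those 7489 windows. The exceptions were the upstream start of Hk1, with 51.3% GC and 1 CpG, and the upstream start of Aldoa, with 52.7% GC and 0 CpG. A CpG-rich window was not always near H3K27ac. That of the upstream Pfkfb3 start, with 69.7% GC and 30 CpG, lay 18161 bp from the nearest H3K27ac peak. The upstream 250 bases of 4 starts are shown because they stand for the different acetylation found at these genes, described further on. At Pfkl an H3K27ac peak covers the stretch, at the upstream start of Pkm and at Slc2a1 it lies 67 and 415 bp from the window, and at Hk2 it lies 1040 bp away. The other Pkm start, which is not printed, has its whole window inside the H3K27ac peak of score 110. Capitals mark CpG dinucleotides, and each sequence reads 5′ to 3′ on the strand of its gene.
Pfkl, chr10:78009808-78010057, minus strand: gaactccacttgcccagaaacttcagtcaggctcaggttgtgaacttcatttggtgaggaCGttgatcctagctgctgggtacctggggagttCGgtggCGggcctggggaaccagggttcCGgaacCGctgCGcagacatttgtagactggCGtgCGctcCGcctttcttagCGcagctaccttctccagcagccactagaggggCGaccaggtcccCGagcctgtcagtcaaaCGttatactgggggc
Pkm, chr9:59656326-59656575, plus strand: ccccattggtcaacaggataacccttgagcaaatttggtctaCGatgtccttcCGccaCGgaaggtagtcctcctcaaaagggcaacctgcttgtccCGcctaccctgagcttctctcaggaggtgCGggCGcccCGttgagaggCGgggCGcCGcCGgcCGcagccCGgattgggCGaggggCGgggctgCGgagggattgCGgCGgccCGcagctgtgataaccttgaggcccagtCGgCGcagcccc
Slc2a1, chr4:119108495-119108744, plus strand: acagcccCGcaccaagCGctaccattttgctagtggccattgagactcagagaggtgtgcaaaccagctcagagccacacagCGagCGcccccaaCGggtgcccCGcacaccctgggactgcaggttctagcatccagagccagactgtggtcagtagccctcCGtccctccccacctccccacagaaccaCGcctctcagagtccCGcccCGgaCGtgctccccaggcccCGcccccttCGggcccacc
Hk2, chr6:82774455-82774704, minus strand: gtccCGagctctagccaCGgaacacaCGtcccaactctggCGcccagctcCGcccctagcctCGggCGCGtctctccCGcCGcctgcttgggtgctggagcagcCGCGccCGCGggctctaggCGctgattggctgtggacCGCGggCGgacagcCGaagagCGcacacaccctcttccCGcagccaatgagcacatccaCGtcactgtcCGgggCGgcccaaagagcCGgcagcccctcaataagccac
The Hk2 stretch holds 25 CpG dinucleotides, the Pkm stretch 21, and the Pfkl and Slc2a1 stretches 13 each. The forkhead letters TGTTTAC were searched on both strands and were found in 0 of the members' 16 windows, against 3.65% of all windows. The looser TGTTTNC, which includes every TGTTTAC match, was found in 1 of 16 (6.25%), against 20.5% of all windows. That match lies at the upstream start of Hk1, on the strand opposite to the gene, and begins 10 bp before the start. A match of letters is a description of the window and not a binding site. No member window overlapped a Foxp4 peak, whereas 2.87% of all windows did. These counts of 0 and 1 come from 16 windows of 10 genes, which overlap in part at Aldoa. They allow shares like those of all windows. For the forkhead letters, windows of like GC content were not compared.

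Foxp4 peaks were assigned to 6 of the 10 genes and lay away from every start. The genes were Slc2a1, Hk1, Hk2, Pfkp, Pfkfb3 and Gapdh, whereas Pfkl, Aldoa, Pkm and Ldha had none. The share of 60.0% (interval 26.2 to 87.8%) stands beside 36.6% of all protein-coding genes and beside 54.3% of the 7888 genes that have an H3K27ac peak. A Foxp4 promoter peak, with its centre within 1000 bp of a start, was found at 0 of 10 genes (upper bound 30.8%), against 6.77% of all genes. Among genes with an acetylated promoter the counts were 0 of 8 (upper bound 36.9%) and 779 of 5470 (14.2%). A count of 0 among so few genes allows a share like that of all genes.

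**Figure D1:**
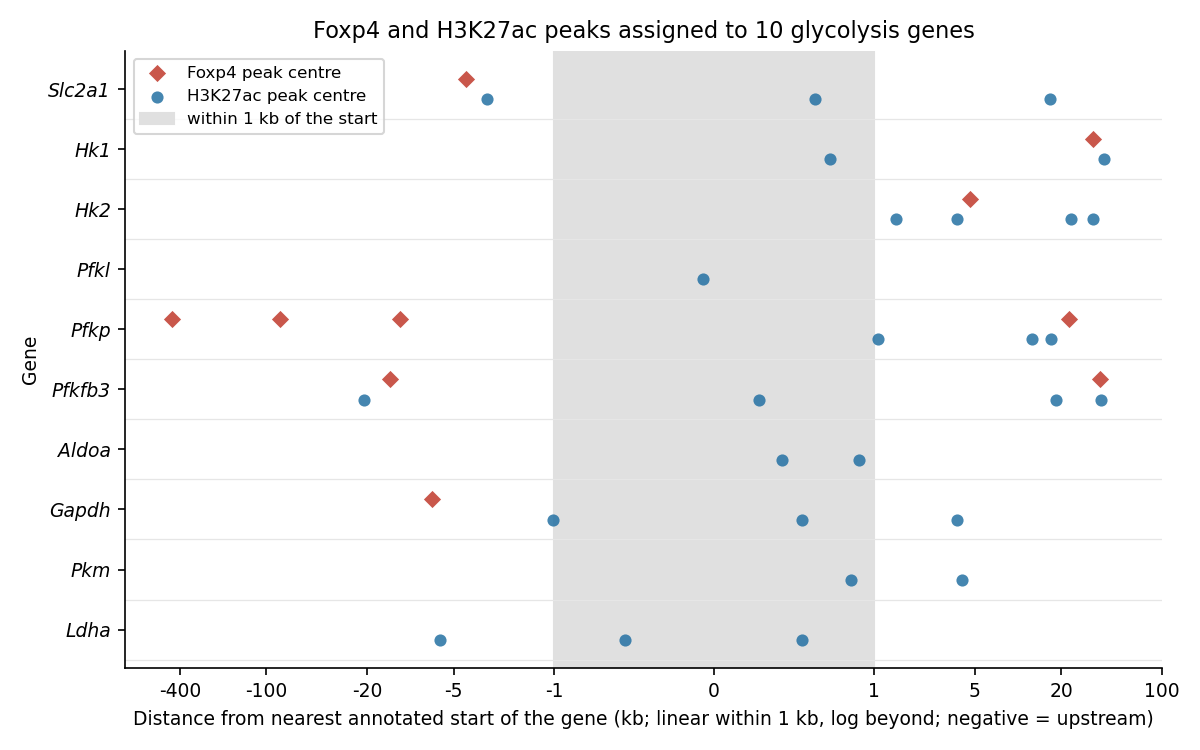
Position of every Foxp4 peak (red diamonds, 10 peaks) and H3K27ac peak (blue circles, 27 peaks) of each gene, as distance of the peak centre from the nearest annotated start in kb, linear within 1 kb and logarithmic beyond it. The grey band within 1 kb holds 10 H3K27ac peaks and 0 Foxp4 peaks.

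In glucose entry, Slc2a1, which encodes the transporter GLUT1 of basal glucose uptake, had a Foxp4 peak of score 27 at 4082 bp upstream of its start (chromosome 4, 119104468 to 119104858). The peak lies in intergenic sequence, in a DNA transposon remnant (MER96B). It lies 767 bp from an H3K27ac peak of score 51 that is 2925 bp upstream of the start. The H3K27ac peak nearest the start had a lower score, 29, and lay in intron 1, centred 629 bp downstream without reaching the start. A broader peak of 1344 bp and score 47 covered part of intron 2. The upstream and intron 2 peaks thus ranked above the median H3K27ac score of 40, and the peak nearest the start ranked above only 16.0% of the list.

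Of the hexokinases, which phosphorylate glucose, Hk2, the insulin-regulated form of muscle and fat, had its Foxp4 peak 4648 bp past the start, within intron 1 (chromosome 6, 82769617 to 82769996). Its score of 28 exceeded that of 53.4% of the Foxp4 list. An H3K27ac peak of score 24 lay 482 bp from it. The other Hk2 acetylation comprised a peak of score 46 at 1418 bp past the start in intron 1, a peak of score 46 in intron 2 and a peak of score 33 in intron 7. Hk2 therefore had 4 H3K27ac peaks, all in introns and downstream of the start.

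Hk1, the widely expressed form, carried Foxp4 inside intron 5, 33136 bp from its nearest start and with a score of 34 (chromosome 10, 62307088 to 62307483). An H3K27ac peak of score 51 in intron 6 lay 5785 bp away. The second H3K27ac peak of Hk1, of score 52, lay 726 bp downstream of the nearer Hk1 start, and the deposited annotation places it at the start of the noncoding RNA gene Hk1os. Acetylation of the pair cannot be told apart from these lists. The window of the other RefSeq start of Hk1, which holds the TGTTTNC match, lay 40000 bp from the nearest H3K27ac peak.

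At the phosphofructokinase step, the isoform genes differed. Pfkl, the liver-type subunit, had no Foxp4 peak and a single H3K27ac peak of score 49 that spanned its start (chromosome 10, 78009472 to 78010281), with its centre 69 bp upstream. Pfkp, the platelet-type subunit, had 4 Foxp4 peaks, a number reached by 3.29% of protein-coding genes. The Pfkp peak of score 34 lay in intron 2, in a SINE repeat (chromosome 13, 6625948 to 6626268). The other 3 Pfkp peaks all had a score of 27 and lay 11817, 80833 and 452982 bp upstream, in intergenic sequence, the nearer pair in LINE repeats. The assignment of these 3 peaks to Pfkp rests on the nearest start alone, and the last of them lies the farthest away. The 3 H3K27ac peaks of Pfkp were broad, at 1599, 1823 and 1449 bp, and had scores of 39, 39 and 49. They lay in introns 1 and 2, the nearest with its centre 1066 bp downstream of the start.

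Pfkfb3, whose enzyme makes the main allosteric activator of phosphofructokinase, had 2 Foxp4 peaks. The peak of score 34 lay in intergenic sequence, 36987 bp downstream of the nearest Pfkfb3 start (chromosome 2, 11464934 to 11465272). It lies 228 bp from an H3K27ac peak of score 37, the shortest of the 10 gaps. The peak of score 27 lay in intron 1 of the long transcript, 13950 bp upstream of an internal start (chromosome 2, 11515697 to 11516384). Pfkfb3 had 4 H3K27ac peaks. The highest score, 62, belonged to a peak in a CpG island of intron 1. The peak nearest an internal start, in the 5′ UTR of its transcript and centred 282 bp downstream, had a score of 40.

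Of the later steps, Aldoa, encoding aldolase A, which splits the phosphorylated hexose, had 0 Foxp4 peaks and 2 H3K27ac promoter peaks. Their scores of 165 (chromosome 7, 126799633 to 126800413) and 114 (chromosome 7, 126797583 to 126798961) exceeded 99.6% and 97.5% of the H3K27ac list. Pkm, encoding the muscle-type pyruvate kinase that forms pyruvate, had 0 Foxp4 peaks and an H3K27ac peak of score 110 in a CpG island of intron 1, 856 bp downstream of the start in the deposited annotation. The starts in the RefSeq promoter table differ from that one, and the centre of this peak lies 648 bp from the upstream and 3 bp from the internal start there. The second Pkm peak of score 59 was the widest of the 27 at 2912 bp (chromosome 9, 59659026 to 59661937). Both genes stood at the upper end of the H3K27ac list and had no Foxp4 peak assigned. At Aldoa a Foxp4 peak assigned to Fam57b lay 8795 bp from the H3K27ac peak of score 165. Of protein-coding genes with an acetylated promoter 50.8% had a Foxp4 peak assigned, so lacking one is common among them.

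Gapdh, which oxidises glyceraldehyde phosphate, had a Foxp4 peak of score 21, higher than only 1.30% of the Foxp4 list (chromosome 6, 125173376 to 125173767). That peak lies in intron 20 of the neighbouring gene Ncapd2, 7104 bp upstream of Gapdh, and is assigned to Gapdh by distance alone. The H3K27ac peak over the Gapdh start covered 2227 bp with a score of 86 (chromosome 6, 125164110 to 125166336). Flanking H3K27ac peaks of scores 39 and 42 were annotated to the ends of the adjacent genes Iffo1 and Ncapd2. Ldha, which converts pyruvate to lactate, had no Foxp4 peak assigned, and the nearest one lay 44160 bp from a start window. Its H3K27ac peaks of scores 48 and 33 lay 548 bp downstream and 557 bp upstream of a start, and another of score 43 lay 6225 bp upstream.

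All 10 genes had an H3K27ac peak assigned (interval 69.2 to 100%), against 37.5% of protein-coding genes. An H3K27ac promoter peak was present at 8 of 10 (80.0%, interval 44.4 to 97.5%), against 26.0% of protein-coding genes. The members were chosen with results of these data known, so these shares describe the 10 genes and are not a test. Just inside the limit of 1000 bp was the Aldoa peak of score 114, at 906 bp. Just outside it were an upstream Gapdh peak at 1019 bp, the Pfkp peak at 1066 bp and the Hk2 peak at 1418 bp, so Pfkp and Hk2, the genes without a promoter peak, missed it by a short distance. With a window of 3000 bp all 10 genes had one, against 28.2% of protein-coding genes, and with 500 bp 3 did (Pfkl, Pfkfb3 and Aldoa), against 19.3%. By the authors' narrower promoter class the number was 4, against 12.6%. Hk1 counted there through the peak annotated to the start of Hk1os. These distances are to the starts of the deposited annotation. With the starts of the RefSeq promoter table, a choice made after seeing the data, 8 genes had an H3K27ac peak centre within 1000 bp, against 29.7% of 16853 genes with a start there. Within 500 bp 4 did, Pkm being added, against 21.7%.

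By their best promoter score the genes ran from Aldoa (165) through Pkm (110), Gapdh (86), Hk1 (52), Pfkl (49), Ldha (48) and Pfkfb3 (40) to Slc2a1 (29). Among 5470 genes with such a peak, Aldoa ranked 44, Pkm ranked 353 and Slc2a1 ranked 4967. Hk1, Pfkl and Ldha differ by so few score units that their order cannot be read without replicates. The members' 10 promoter peaks had a median score of 50.5 and all 6415 promoter peaks a median of 51.0. Outside promoters the medians were 46.0 over 17 member peaks and 37.0 over 11149 peaks of the list. Of the 27 member peaks 18 scored above the list median (66.7%, interval 46.0 to 83.5%), against 49.4% of all H3K27ac peaks. That interval includes the share of the list. Of the 27, 10 were wider than 1000 bp (37.0%, interval 19.4 to 57.6%), against 16.7%. All 3 Pfkp peaks are among these 10, and peaks of the same gene are not independent, so that interval can be too narrow. Promoter peaks made up 37.0% of the members' H3K27ac peaks and 36.5% of the list. Introns held 16 of the 27 (59.3%, interval 38.8 to 77.6%), against 45.8% of the list, a share inside that interval.

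**Figure D2:**
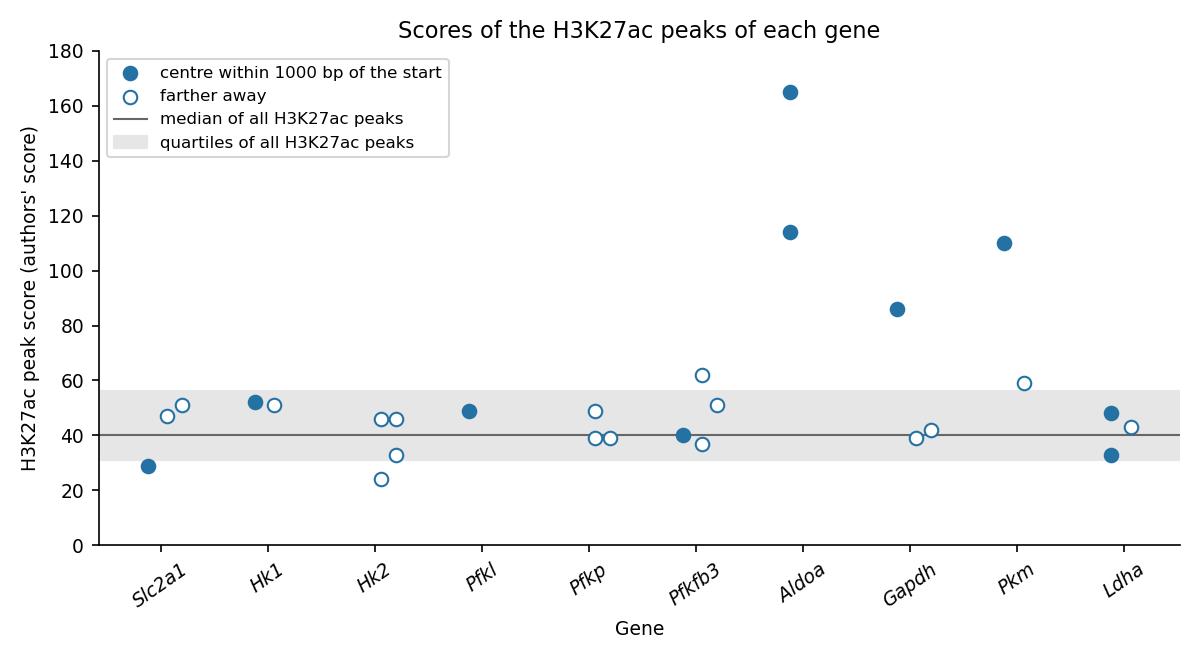
Authors' score of each H3K27ac peak by gene, filled where the peak centre lies within 1000 bp of a start and open elsewhere; the line and grey band give the median (40) and quartiles (31 and 56) of all 17564 H3K27ac peaks. Aldoa, Pkm and Gapdh reach 86 to 165, and the other genes stay at 62 or below.

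Acetylation lay beside the starts more often than over them. Of the members' 16 windows of 300 bases, 4 overlapped an H3K27ac peak and 13 had one within 1000 bp (81.2%), against 12.6% and 22.8% of all windows. Of the 10 promoter peaks 8 had their centre downstream of the start, against 71.1% of all H3K27ac promoter peaks, a share near that background. At Ldha a peak lay on either side of a start window, and at Aldoa the peak of score 165 lay 128 bp from one window and overlapped another by 16 bp.

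None of the 10 Foxp4 peaks overlapped an H3K27ac peak (upper bound 30.8%), against 8.21% of all Foxp4 peaks. Of the 8731 Foxp4 peaks assigned to protein-coding genes with an H3K27ac peak, 13.8% overlapped one. The gap was nevertheless short at several genes. H3K27ac lay within 1000 bp of 3 of the 10 peaks (30.0%, interval 6.67 to 65.2%), at Pfkfb3, Hk2 and Slc2a1. The share was 12.9% of all Foxp4 peaks and 21.6% of those at genes with an H3K27ac peak. The median gap was 5.57 kb for the members, 14.1 kb for Foxp4 peaks at genes with H3K27ac and 39.1 kb for the whole list. The peaks of Pfkp with gaps of 80901 and 453093 bp stood apart from the others. A Foxp4 peak overlapping H3K27ac was thus found at 0 of 10 members and at 5.36% of protein-coding genes.

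**Figure D3:**
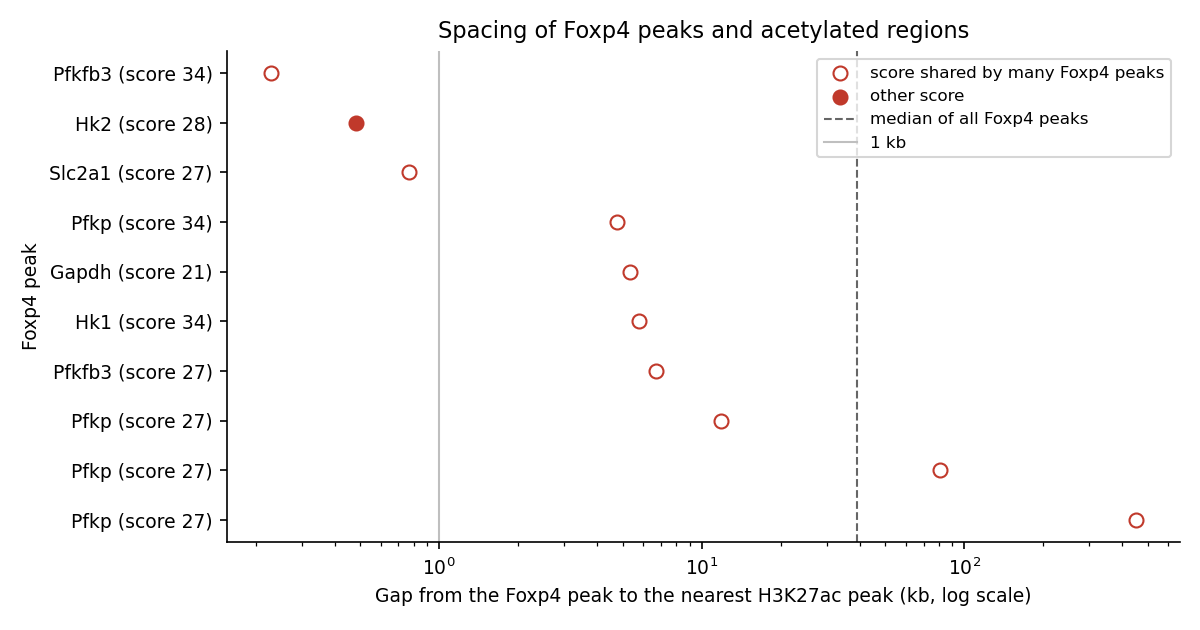
Gap in kb (log axis) between each of the 10 Foxp4 peaks and the nearest H3K27ac peak, with the peak's gene and score; open circles are scores shared by very many Foxp4 peaks, the filled circle (Hk2) is another score. The dashed line is the median of all Foxp4 peaks, 39.1 kb, which 8 of the 10 peaks fall below.

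The members' Foxp4 scores ran from 21 to 34 with a median of 27, equal to the median of all Foxp4 peaks. Of these peaks 9 had 1 of 6 score values (21, 27, 34, 41, 49 and 57) that each recur in 104 to 4765 peaks, against 73.1% of the list. The exception was the Hk2 peak of score 28. Introns held 5 of the 10 peaks and intergenic sequence 5, against 43.5% and 45.2% of the list. The 6 genes with a Foxp4 peak had a median length of 59.3 kb (range 4.62 to 111 kb), and the 4 genes without one 18.1 kb (range 5.76 to 22.9 kb). Gapdh, which has a Foxp4 peak, was the shortest of the 10, and the other 5 genes with one were longer than every gene without. Over all protein-coding genes these medians were 31.2 and 12.9 kb. The part of gene length in the members' difference was not tested. Assignment by nearest start also moved peaks between genes. The body of Hk1 held a further Foxp4 peak of score 27 assigned to Tacr2, and that of Pfkp a peak of score 21 assigned to Pitrm1.

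**Figure D4:**
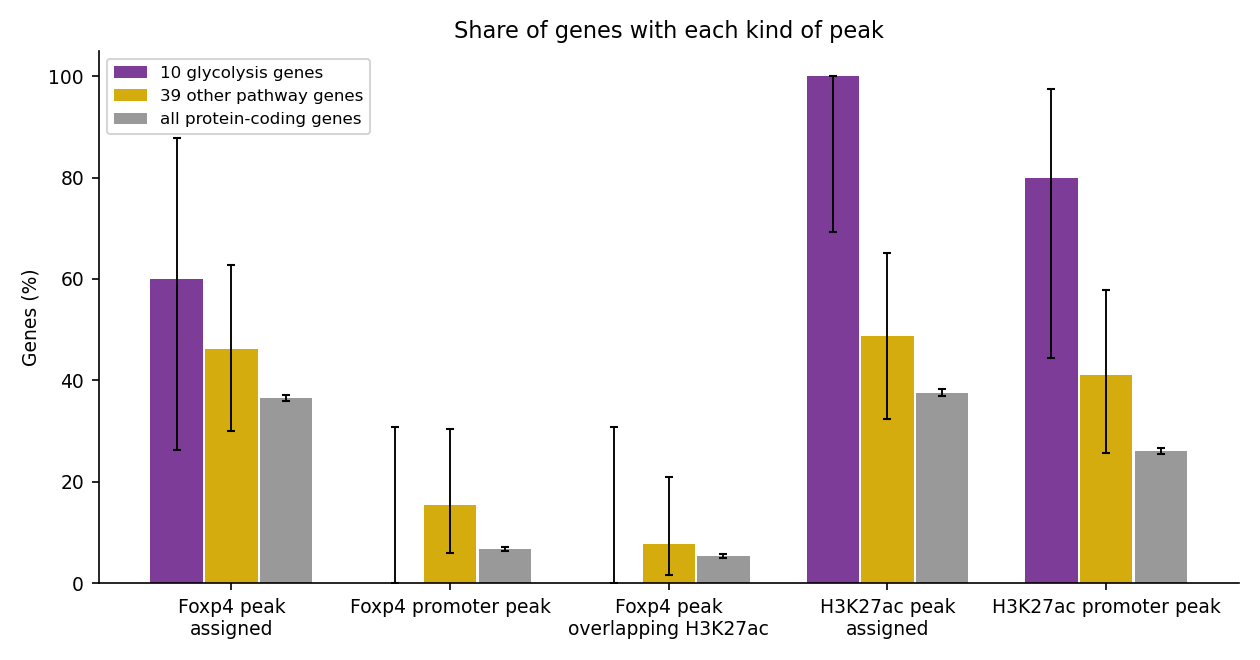
Percent of genes with each kind of peak among the 10 glycolysis genes (purple), 39 other pathway genes (yellow) and all 21031 protein-coding genes (grey); bars start at 0 and error bars are exact 95% intervals. H3K27ac promoter peaks are present at 80.0%, 41.0% and 26.0%, and Foxp4 promoter peaks at 0%, 15.4% and 6.77%.

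Among the 39 other genes of glycolysis, glucose and lactate transport and their regulation, 16 had an H3K27ac promoter peak (41.0%, interval 25.6 to 57.9%) and 6 a Foxp4 promoter peak (15.4%, interval 5.86 to 30.5%). A Foxp4 peak at any distance was assigned to 18 of them (46.2%, interval 30.1 to 62.8%) and an H3K27ac peak to 19 (48.7%, interval 32.4 to 65.2%). Over all protein-coding genes the shares were 26.0% for H3K27ac and 6.77% for Foxp4 promoter peaks. For Foxp4 and H3K27ac peaks at any distance they were 36.6% and 37.5%. Each of these intervals includes the share of all genes. The 6 with a Foxp4 promoter peak were Pgk1, Pgm1, Slc16a3, Pdk1, Pdk2 and Mlxipl. Pgk1, the ATP-forming kinase after Gapdh, had the highest Foxp4 score of the pathway, 144, and an H3K27ac peak of score 23 at a gap of 115 bp. Pgm1, the phosphoglucomutase gene listed under its older symbol Pgm2 in the deposited files, had a Foxp4 peak of score 34 that overlapped H3K27ac. Slc16a3, a lactate exporter, had a Foxp4 peak of score 35 at 293 bp from its start and H3K27ac of score 20 at a gap of 510 bp. Pdk1 and Pdk2, kinases that restrain pyruvate entry into mitochondria, had Foxp4 promoter peaks of scores 40 and 28 and 0 H3K27ac peaks. Mlxipl, the carbohydrate response factor ChREBP, had 4 Foxp4 peaks, of which 2 overlapped an H3K27ac peak of score 87. Pdk4, a starvation-induced kinase of the same family, had a Foxp4 peak of score 49 that overlapped H3K27ac of score 91, at 13308 bp upstream. In all, 3 of the 39 genes had an overlapping Foxp4 peak (7.69%, interval 1.62 to 20.9%). The counts beside it were 0 of the 10 members (upper bound 30.8%) and 5.36% of all protein-coding genes. Both intervals include the share of all genes, so pathway genes and members cannot be told apart here.

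Slc2a4, encoding the insulin-responsive transporter GLUT4, had 2 Foxp4 peaks of score 27 and no H3K27ac peak, whereas Slc2a1 had both marks. Hif1a, the hypoxia factor that activates many glycolytic genes, had 6 H3K27ac peaks and 3 Foxp4 peaks assigned, none overlapping. The H3K27ac peak of the highest score, 88, lay 719 bp from a start, and others lay as far as 158243 bp upstream. The Foxp4 peaks lay 76323, 121501 and 136635 bp upstream, the farthest in an intron of Prkch. Their assignment to Hif1a rests on the nearest start alone. By presence or absence of a Foxp4 promoter peak, an H3K27ac promoter peak and an overlap, 8 members shared the pattern of an acetylated promoter with neither a Foxp4 promoter peak nor an overlap. Over all protein-coding genes this pattern was found at 12.8% without and 8.31% with a Foxp4 peak elsewhere. These are 2689 and 1747 of the 5470 genes with an acetylated promoter. Most genes with an acetylated promoter thus share the pattern, and it is not particular to the members. The pathway genes with that pattern numbered 12: Gpi1, Hif1a, Tpi1, Eno1, Eno2, Gapdhs, Pfkfb2, Pfkfb4, Pgam1, Slc16a1, Tigar and Txnip. Of these Tpi1, the triose isomerase, had an H3K27ac promoter score of 140. Gpi1, the glucose phosphate isomerase, had a score of 57 at its promoter and 125 at 2915 bp upstream. The Eno1 peak is annotated to a transcript of its near copy Eno1b and is uncertain for that reason. Of the members, Hk2 and Pfkp had the remaining pattern of distal Foxp4 with no promoter peak of either kind. That pattern, held by 2 of 10 members (20.0%), was found at 19.2% of all protein-coding genes, and at 8 of the 39 pathway genes (20.5%): Adpgk, Hk3, Hkdc1, Ldhb, Pgk2, Slc2a2, Slc2a3 and Slc2a4. These 8 had 0 H3K27ac peaks, against 4 at Hk2 and 3 at Pfkp.

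**Figure D5:**
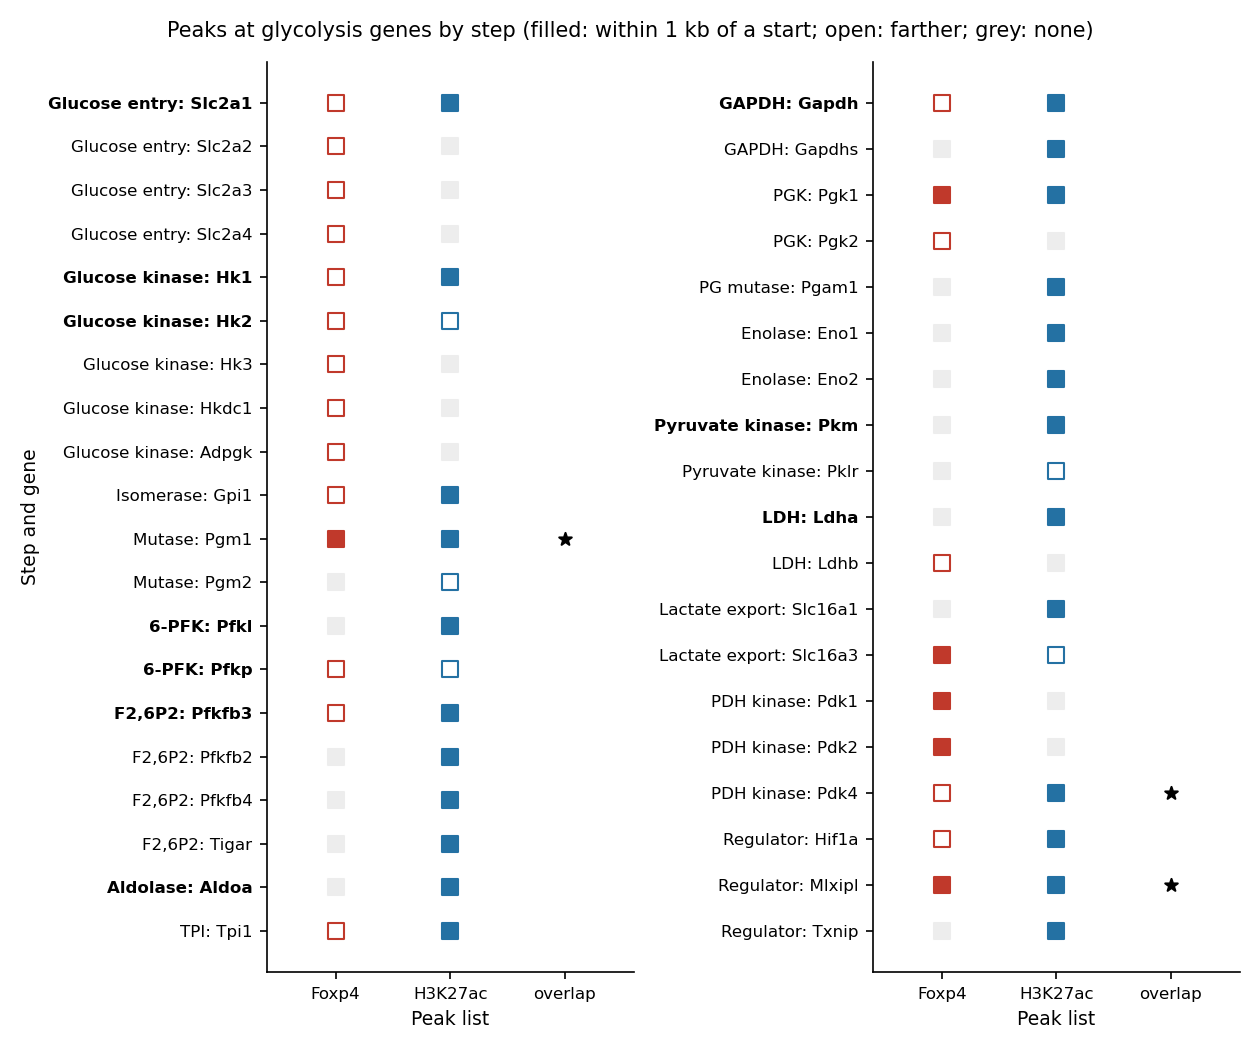
Presence of Foxp4 and H3K27ac peaks at the 10 glycolysis genes (bold) and at the other pathway genes with a peak in either list, ordered by step; filled squares have a peak within 1 kb of a start, open squares only farther ones, grey squares none, and stars mark a Foxp4 peak overlapping H3K27ac. None of the 10 genes has a filled Foxp4 square or a star.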

How the data were processed

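ChIP-seq peak lists of a Foxp4 library and an H3K27ac library from mouse beige adipocytes were used, 1 library each, with groups taken from sample titles. Bowtie2, Picard, SAMtools, MACS2, deepTools 3.3.0 and mm10 are named in the submitters' processing notes; settings, call threshold and use of the input were not given in the sources used here. A Foxp4 antibody and sonicated nuclei are stated per the labels' protocols, which name no H3K27ac antibody. Per the file headers, each list is a narrowPeak file annotated by HOMER annotatePeaks.pl, with the nearest RefSeq start and the signed distance (bp) from the peak centre. The deposited score is a whole number of at least 20 whose definition the headers do not state. Depth is unknown, and a deeper library can yield more peaks.

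From these, 1 Foxp4 peak off chromosomes 1 to 19, X and Y was left out. Peaks were matched to genes by Entrez identifier, which for the 10 genes picked the same peaks as the symbol. The background was 21031 protein-coding RefSeq genes (GRCm38.p6) with a curated transcript. A promoter peak had its centre within 1000 bp of a start of the deposited annotation, and overlap meant at least 1 bp. A score was called recurrent where 100 or more Foxp4 peaks held it and it was more than 3 times as frequent as the score 1 below and the score 1 above. Members, gene lists, markers and alternatives were chosen with earlier results of these data known. The named genes were the 10 members and, of the other pathway genes, those with a Foxp4 promoter peak or an overlapping Foxp4 peak, those sharing a member's pattern, Slc2a4, Hif1a and Pgk1. The overlap, gap and interval code was tested on simulated data. Some genes of the pathway list are not reported here by name. Alternatives covered the score threshold, recurrent scores, overlap rule, promoter window and assignment. Work was done in Python 3.11.15 with scipy 1.17.1, pandas 2.3.3 and numpy 2.4.6, and figures in matplotlib 3.10.9.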

Additional observations from a re-analysis of the deposited data

How the results depend on the processing

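The 12 alternatives were applied to 8 counts. With only the top 50% of peaks by score, the members' Foxp4 peaks numbered 4, against 10 in the full list. Without the recurrent Foxp4 scores 1 peak and 1 gene, Hk2, were left. When H3K27ac within 1000 bp counted as overlap, 3 Foxp4 peaks at 3 genes did so, against 0. With a promoter window of 500 bp 3 genes had an H3K27ac promoter peak, by the authors' promoter class 4 did, and with RefSeq promoter table starts and 500 bp, chosen after seeing the data, 4 did, against 8. The other counts moved by at most 1.5 times under the alternatives run for them, and those of 0 for Foxp4 promoter peaks stayed at 0 under each promoter rule and list. Gene bodies extended by 5 kb gave 7 Foxp4 peaks at 5 members, without Gapdh, and 29 H3K27ac peaks at 10 members. No paired analysis was possible because each target had 1 library. Absence of a peak means that none was called at an unknown depth.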
